A study of Mus musculus with 24 samples.

Results

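The data described here compare mouse liver of 2 genotypes, glucagon receptor knockout and WT, in the change of RNA between P2.5 and P7.5. These are 2 ages in the first days after birth. For each gene, the change from P2.5 to P7.5 in WT liver was subtracted from the change over the same ages in GCGR knockout (KO) liver. The result is called the difference in change, in log2 units: it is positive where KO liver rose more or fell less than WT liver. It was taken over all genes measured. The libraries were chosen by label and by their measured Gcgr level, which left 15 of the 24 of the series: 4 WT livers at P2.5, 4 WT livers at P7.5, 4 KO livers at P2.5 and 3 KO livers at P7.5. Livers of both genotypes at E18.5 entered only the estimate of the spread. Genotype and age are what the labels give; strain, sex and feeding state are not stated in the sources used here, nor is it whether replicates were different animals or litters, so p-values measure the spread between these libraries.

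Each library is 1 two-colour Agilent array. Total RNA of the liver was labelled with Cy5 and hybridised with Cy3-labelled Universal mouse reference RNA, a commercial pool that served as the common comparator on every array. Liver RNA carried Cy5 throughout, with no dye swap. A value is the log2 of Cy5 over Cy3 for the brightest probe of a gene, so 0 means as much signal in the liver as in the reference pool, and levels of different genes cannot be set against each other.

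Glucagon is the pancreatic hormone of the unfed state. Its receptor, Gcgr, is a G protein-coupled receptor of hepatocytes that raises cAMP and activates protein kinase A and the transcription factor CREB, which is known to favour glycogen breakdown, gluconeogenesis, amino acid catabolism and fatty acid oxidation. Birth ends the supply of maternal glucose, and the newborn liver then lives on fat-rich milk while blood cell formation leaves the organ.

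One library was left out because of its own Gcgr value. The log2 ratio of Gcgr was 5.51, 5.75, 6.26 and 5.74 in the WT livers at P2.5 and 5.497, 5.61, 5.65 and 5.65 in those at P7.5. In KO livers it was 0.17, 0.38, 0.37 and 0.19 at P2.5, then 0.00033, 0.26 and -0.0064 in replicates 1, 3 and 4 at P7.5, in that order. The library labelled P7.5 KO replicate 2 had 5.02, at the WT level, and the highest kept KO library at that age had 0.26. These values chose the libraries, so they are given without a test. All other values of KO liver at P7.5 below are of replicates 1, 3 and 4, in that order.

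The left-out library shared its slide with the 3 kept KO libraries at P7.5. Of 2068 genes with a positive difference in change whose KO and WT levels at P7.5 also differed past the threshold, it lay nearer the KO mean for 1192 and nearer the WT mean for 876. For the 1881 genes of this kind with a negative difference, these numbers were 1243 and 638. It stood with WT liver for some genes and with KO liver for others, and its position was computed after the other values were seen. Such counts below, for lists and leading genes, cover all called genes, whether or not KO and WT differed past the threshold at P7.5.

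Within groups, libraries correlated with each other over all genes tested at 0.942 to 0.983 for WT at P2.5, 0.950 to 0.987 for KO at P2.5, 0.991 to 0.992 for WT at P7.5 and 0.965 to 0.995 for KO at P7.5. Replicates 3 and 4 of KO at P7.5 were the closest pair, at 0.995, and replicate 1 stood apart from them, at 0.967 and 0.965. Replicate 1 correlated more highly, at 0.980, with the left-out library. That library correlated at 0.954 with replicates 3 and 4 and at 0.970 to 0.975 with WT at P7.5. KO at P7.5 lay on 1 slide and KO at P2.5 on 2 others, of which replicate 3 was alone on 1 with its own scan day, so slide and age cannot be told apart in KO liver. In WT liver, 3 slides held both ages. The WT and KO arrays shared no slide and no scan day and were read with different versions of the image software. Slide, scan day and software version therefore cannot be told apart from genotype. The 19 tested hepatocyte markers, such as Alb and Apoa1, were well above background in all 15 libraries. Of the 12 tested markers of pancreas and gut cells, 0 had a difference in change past the threshold with limma, and 3 had an unadjusted p under 0.05. A bulk liver sample cannot separate fewer cells of a type from less RNA per cell.

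The first week of life differed between the genotypes for a large share of the genes measured. Of 17242 genes tested, 5734 (33.3%) had a difference in change past an adjusted p of 0.05 (limma, Benjamini-Hochberg over all genes tested), 2907 (16.9%) positive and 2827 (16.4%) negative. At least 2-fold differences were positive for 799 genes (4.63%) and negative for 366 (2.12%). Among the 2907 positive genes, WT liver fell and KO liver rose for 2209 by the sign of the means, and both of these changes passed their own test for 565. Among the 2827 negative genes, WT rose and KO fell for 1990, with both changes past the threshold for 346. Genes chosen for a difference in change tend to have means that moved in opposite directions, and over all genes tested 22.6% fell in WT and rose in KO and 23.2% did the reverse. The 565 and 346 genes were all genes of their kind among those tested, 3.28% and 2.01% of the 17242. The median difference in change over all genes tested was -0.014. Tested by itself, the WT change passed for 6576 genes (38.1%), higher at P7.5 for 21.3% of all genes and lower for 16.8%. The KO change passed for 6341 genes (36.8%), higher for 21.4% and lower for 15.3%.

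**Figure D1:**
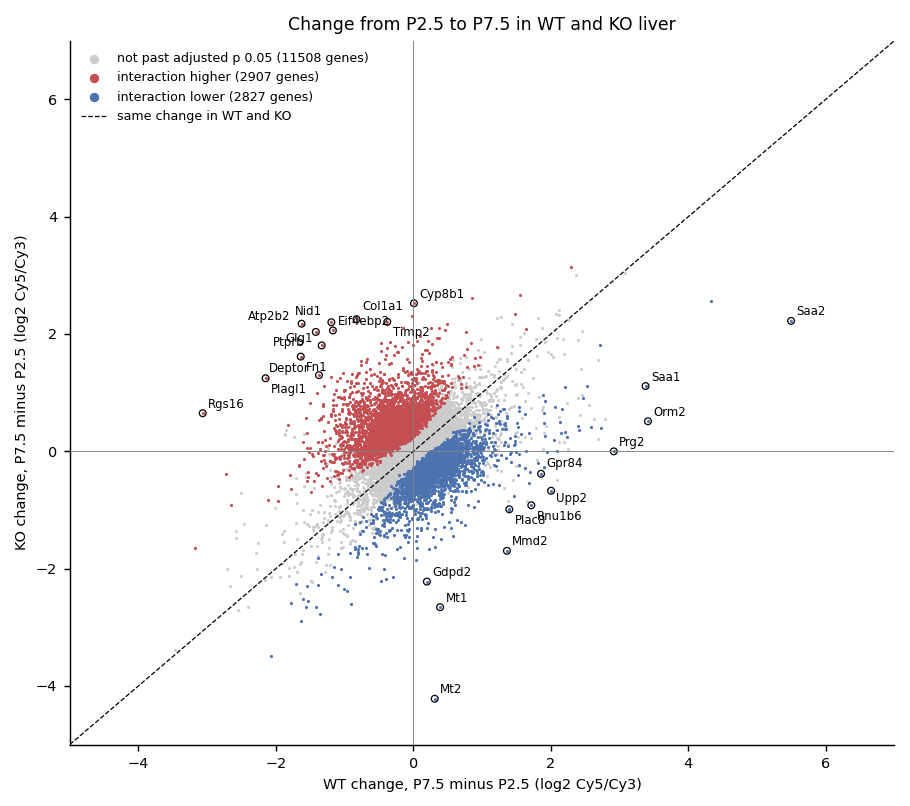
Change of each of 17242 genes from P2.5 to P7.5 in WT liver (horizontal axis) and KO liver (vertical axis), both in log2 Cy5/Cy3, with 1 point per gene. Points on the dashed line changed alike in both genotypes; the 2907 genes in red lie above it and the 2827 in blue below it, and circles mark the 12 leading genes of each direction.

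The genes with the largest positive differences were of several kinds. They included extracellular matrix genes (Nid1 of basement membranes, Fn1 for fibronectin, Col1a1 for a chain of type I collagen and Timp2, an inhibitor of matrix metalloproteinases), the endothelial receptor phosphatase Ptprb, the bile acid enzyme Cyp8b1 and regulators of growth and translation (Deptor, an inhibitor of mTOR, and Eif4ebp2, a repressor of cap-dependent translation). Atp2b2, a plasma membrane calcium pump, Rgs16, which speeds GTP hydrolysis by G protein alpha subunits, Plagl1, an imprinted zinc finger transcription factor, and Glg1, a Golgi glycoprotein, completed the leading 12.

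Atp2b2 had log2 ratios of 2.86, 3.72, 3.27 and 3.09 in WT at P2.5 and 1.503, 1.62, 1.71 and 1.62 in WT at P7.5, against 0.85, 1.29, 0.82 and 1.46 at P2.5, then 2.57, 3.601 and 3.67 at P7.5 in KO. Every KO library was below every WT library at P2.5 and above every WT library at P7.5. The difference in change was 3.802 ± 0.35 (SE), or 13.9-fold, with an adjusted p of 1.27e-06, and the left-out library had 2.35, between the groups. The other Atp2b2 probe, well above background in all 15 libraries, gave a smaller difference of 1.82. With the log ratio that the image software computed, the difference of Atp2b2 was 0.97 (adjusted p = 0.277) and that of Ptprb 1.41 (adjusted p = 0.0652).

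Rgs16 took another course. Its WT values fell from 2.24, 2.99, 4.01 and 2.78 to -0.12, 0.69, -0.26 and -0.56, and its KO values were 3.79, 3.38, 3.48 and 2.96 at P2.5, then 3.68, 4.28 and 4.199 at P7.5. The genotypes overlapped at P2.5 and were far apart at P7.5. The fall in WT was -3.07 ± 0.37 (adjusted p = 3.13e-06), the KO change was 0.65 ± 0.39 (adjusted p = 0.213), and the difference in change was 3.71 ± 0.54 (adjusted p = 6.73e-05). The left-out library had -0.52, within the range of WT liver at P7.5, and with it kept among the KO libraries the difference was 2.57 (adjusted p = 0.0522).

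Eif4ebp2 was similar in both genotypes at P2.5, with 0.77, 0.39, 0.76 and 0.30 in WT and 0.36, 0.16, -0.16 and 0.85 in KO, and then parted, with -0.46, -0.55, -0.71 and -0.74 in WT and 1.72, 2.62 and 2.75 in KO at P7.5. The WT fall and the KO rise both passed the threshold, and the difference in change was 3.23 ± 0.38 (adjusted p = 1.33e-05). Here the left-out library, at 1.91, stood with the KO livers. Over the 12 leading positive genes it lay nearer KO for 5 and nearer WT for 7. Nid1 has other probes with 0.42 and 1.505. Plagl1 and Timp2 each have another probe with a difference of the opposite sign, the lowest at -0.39 and -0.055.

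**Figure D2:**
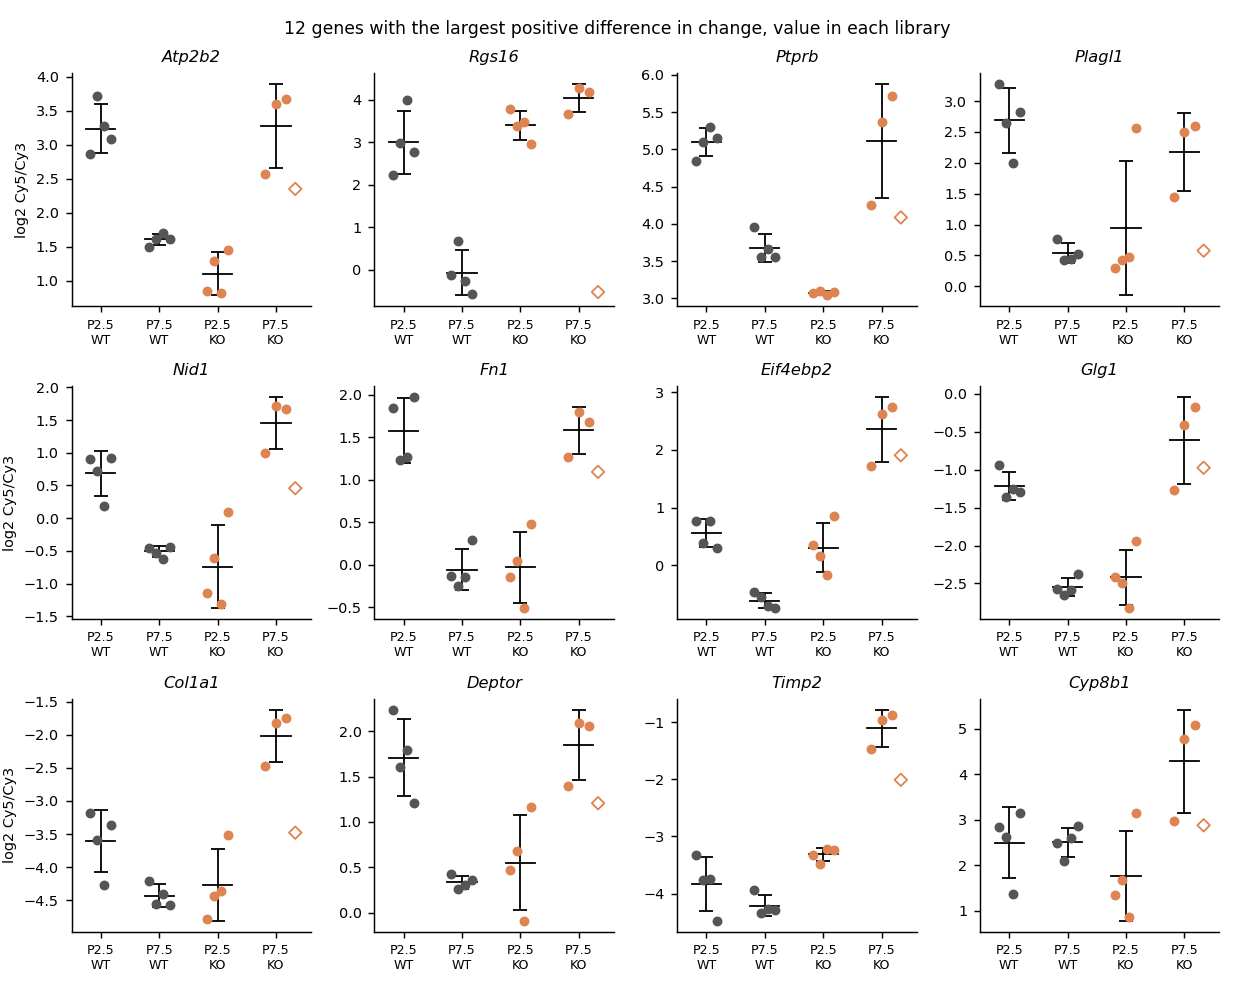
Log2 Cy5/Cy3 in each library for the 12 genes with the largest positive difference in change, with WT in grey, KO in orange, the horizontal line the mean and the bar 1 SD over 4 libraries (3 for KO at P7.5). The open diamond is P7.5 KO replicate 2, which enters no mean. KO at P7.5 is above WT at P7.5 in all 12 panels. The genes were chosen by these same values, so this separation is no further result.

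Genes that mark hepatic stellate cells and fibroblasts, the collagen-producing cells of the liver, gave the highest share of positive differences among the lists described. Of 21 tested members 16 were positive and 0 negative, with a median of 1.14, against 16.9% positive and 16.4% negative over all genes. The mean log2 ratio over the members ran from -0.68 to -0.20 in KO at P2.5 and from 0.21 to 0.58 in KO at P7.5, without overlap. In WT it ran from -0.43 to -0.11 at P2.5 and from -0.56 to -0.43 at P7.5.

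Col1a1 had -3.19, -3.59, -4.27 and -3.37 in WT at P2.5, -4.202, -4.55, -4.398 and -4.58 in WT at P7.5, -4.79, -4.44, -4.35 and -3.51 in KO at P2.5, then -2.48, -1.82 and -1.76 in KO at P7.5. The 3 KO livers at P7.5 were above all other libraries. Its difference in change was 3.08 ± 0.47 (adjusted p = 9.57e-05), with a KO rise of 2.25 ± 0.34. Its partner chain Col1a2 had 1.92 (adjusted p = 6.28e-05) and the matrix proteoglycan Dcn 2.04 (adjusted p = 3.30e-05). Lrat, which makes the retinyl esters stored in stellate cells, had 1.27, and the platelet-derived growth factor receptors Pdgfrb and Pdgfra had 1.33 and 0.57, all past the threshold. The smooth muscle actin Acta2, a gene of activated stellate cells, was also positive, at 0.46, whereas Des (0.16) and Tagln (0.48) did not pass. Fn1, which hepatocytes also make, went from 1.84, 1.23, 1.27 and 1.98 to -0.13, -0.25, -0.14 and 0.29 in WT and from -0.14, 0.05, -0.51 and 0.48 to 1.27, 1.79 and 1.68 in KO, so that here WT liver fell as KO liver rose. P7.5 KO replicate 2, left out, lay nearer KO for 7 of the 16 called members and nearer WT for 9.

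Endothelial genes were mostly positive too, with smaller differences. Of 20 tested members 10 (50%) were positive and 1 (5%) was negative, the latter Egfl7 (-0.52), against 16.9% and 16.4% over all genes. The median was 0.65. Ptprb led, at 4.84, 5.101, 5.31 and 5.15 at P2.5, then 3.95, 3.55, 3.67 and 3.55 at P7.5 in WT, and 3.07, 3.103, 3.04 and 3.09 at P2.5, then 4.25, 5.36 and 5.72 at P7.5 in KO. All KO values were below WT at P2.5 and above WT at P7.5, and the difference in change was 3.45 ± 0.34 (adjusted p = 2.75e-06), with 1.77 for its other probe. The vascular growth factor receptor Flt1 had 1.24 (adjusted p = 0.000699), the endothelial co-receptor Eng 0.72 and the scavenger receptors of the sinusoid Stab1 and Stab2 0.63 and 0.67. Pecam1 (0.23), Kdr (-0.19) and Clec4g (-0.049) did not pass. With the image software's log ratio 4 members were positive and the median was -0.04, and the left-out library lay nearer WT for 9 of the 11 called members.

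The genes with the largest negative differences fell into fewer groups. Mt1 and Mt2, the metallothioneins that bind zinc and copper, Saa1, Saa2 and Orm2, secreted acute-phase proteins of the hepatocyte, and Prg2, the major basic protein of eosinophils, were among the leading 12. The others were Mmd2, a membrane protein of the PAQR family, Upp2, a uridine phosphorylase of the liver, Rnu1b6, a copy of the spliceosomal U1 RNA, Gdpd2, a glycerophosphodiester phosphodiesterase, Plac8 of myeloid and lymphoid cells and Gpr84, a myeloid receptor for medium-chain fatty acids. Other probes of Upp2 and Plac8 gave differences of -1.47 and -1.58, against -2.68 and -2.39 for the brightest.

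Mt2 had the largest difference in change of the named genes. Its log2 ratios were 2.97, 2.42, 2.91 and 3.15 in WT at P2.5 and 3.498, 2.65, 2.76 and 3.79 in WT at P7.5, with overlap of the ages. In KO they were 2.48, 2.72, 3.05 and 1.81 at P2.5, then 0.74, -3.23 and -2.62 at P7.5. The KO livers at P7.5 were below all other libraries, replicates 3 and 4 the most. The KO fall was -4.22 ± 0.60 (adjusted p = 1.79e-05), and the difference in change was -4.53 ± 0.82 (adjusted p = 0.000397). Mt1, its neighbour, had 2.66, 2.79, 2.76 and 1.56 in KO at P2.5, then 1.01, -1.12 and -0.53 in KO at P7.5, and a difference of -3.05 ± 0.53 (adjusted p = 0.000289). The left-out library had 3.27 for Mt2 and 3.03 for Mt1, both within the range of WT at P7.5.

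Metallothionein genes are known to respond to zinc through metal response elements, and the 2 genes lie side by side. The windows of 250 bases before their start sites, on the plus strand of GRCm38.p6 and taken from RefSeq, are chr8:94178839-94179088 for Mt1 and chr8:94172368-94172617 for Mt2. Capitals mark the core of the metal response element, searched as TGCGCNC and TGCACNC on both strands. These windows were printed after the values were seen, and after other motifs had been searched in the windows of other genes.

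Mt1: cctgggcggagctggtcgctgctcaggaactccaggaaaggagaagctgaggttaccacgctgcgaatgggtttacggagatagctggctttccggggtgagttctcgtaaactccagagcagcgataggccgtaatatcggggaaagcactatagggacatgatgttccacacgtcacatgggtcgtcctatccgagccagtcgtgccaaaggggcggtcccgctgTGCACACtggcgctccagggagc

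Mt2: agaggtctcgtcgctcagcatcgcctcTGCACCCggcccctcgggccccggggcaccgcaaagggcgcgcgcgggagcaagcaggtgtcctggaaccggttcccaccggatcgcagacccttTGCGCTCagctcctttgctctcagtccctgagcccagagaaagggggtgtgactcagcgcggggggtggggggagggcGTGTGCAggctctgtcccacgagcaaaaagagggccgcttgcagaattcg

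The core occurred 1 time in the Mt1 window and 3 times in the Mt2 window. Of all 32851 windows of this length, 21.4% held at least 1 and 1.26% at least 3. A match of these letters is a description of the window and no measure of binding. Bases after the annotated start sites were not searched, so these are not counts of all elements of either gene.

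Saa2 rose in both genotypes, and more in WT. The WT livers went from 1.198, 1.695, 1.08 and 2.94 at P2.5 to 6.73, 7.31, 6.96 and 7.896 at P7.5, a rise of 5.496 ± 0.64 (adjusted p = 2.49e-06). The KO livers went from 1.11, 0.84, 4.22 and 0.72 to 5.73, 3.26 and 2.85, a rise of 2.22 ± 0.69 (adjusted p = 0.0156). All KO livers at P7.5 were below all WT livers, replicate 1 least so, and the difference in change was -3.27 ± 0.95 (adjusted p = 0.0114). Saa1 had -0.79, -0.80, -0.72 and -0.29 at P2.5, then 2.37, 2.74, 2.56 and 3.26 at P7.5 in WT, and -0.75, -0.91, -0.071 and -1.06 at P2.5, then 1.64, -0.15 and -0.24 at P7.5 in KO, with a difference of -2.27 (adjusted p = 0.000604). The left-out library had 7.12 and 2.599, at the level of WT, and with it kept the difference of Saa2 was -2.48 (adjusted p = 0.0818).

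Saa1 and Saa2 are neighbours in opposite orientation with closely similar sequences, so their probes may share signal. The 250 bases before their start sites in RefSeq (GRCm38.p6) are chr7:46742981-46743230 on the minus strand for Saa1 and chr7:46751583-46751832 on the plus strand for Saa2, each written in the direction of its gene. Capitals mark bases without a match in the other window after global alignment, which gave 238 identical positions (94.8%), 11 mismatches and 2 gap positions.

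Saa1: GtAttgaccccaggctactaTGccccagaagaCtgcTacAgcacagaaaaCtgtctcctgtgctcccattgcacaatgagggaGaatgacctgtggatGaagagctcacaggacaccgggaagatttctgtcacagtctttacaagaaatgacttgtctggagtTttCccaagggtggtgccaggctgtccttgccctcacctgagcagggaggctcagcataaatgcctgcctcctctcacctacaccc

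Saa2: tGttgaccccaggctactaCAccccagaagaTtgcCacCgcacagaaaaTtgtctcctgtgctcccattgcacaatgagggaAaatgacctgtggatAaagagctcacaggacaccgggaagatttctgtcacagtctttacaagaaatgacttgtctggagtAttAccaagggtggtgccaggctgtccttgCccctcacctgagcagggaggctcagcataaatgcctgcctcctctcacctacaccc

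Of the 28 tested acute-phase and metallothionein genes, 9 (32.1%) were negative and 2 (7.14%) positive, against 16.4% and 16.9% over all genes. Their median was -0.30. Orm1, Orm2 and Saa3 belonged to the negative members, together with the haem carrier Hpx (-0.49) and the transcription factor Cebpd (-0.77). The positive members were the copper carrier Cp, at 1.66, and complement C3, at 1.84, and without P7.5 WT replicate 4 the positive members were 4. Hp (0.24), Lbp (0.058) and the fibrinogen genes Fga, Fgb and Fgg (-0.15, 0.36 and -0.10) did not pass. Orm2 rose from 0.89, 0.35, 1.19 and 1.96 to 3.82, 4.498, 4.37 and 5.35 in WT and had 0.37, 0.26, 1.03 and 0.43 at P2.5, then 2.78, 0.13 and 0.19 at P7.5 in KO, where only replicate 1 stood above the P2.5 values. The left-out library lay nearer WT for 9 of the 11 called members, and with it kept 4 members were negative. With those local backgrounds kept that the image software marked as uneven, 7 were negative and the median turned to 0.039. The list's member genes are short, with a median genomic length of 5.97 kb against 19.6 kb over all genes tested.

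**Figure D3:**
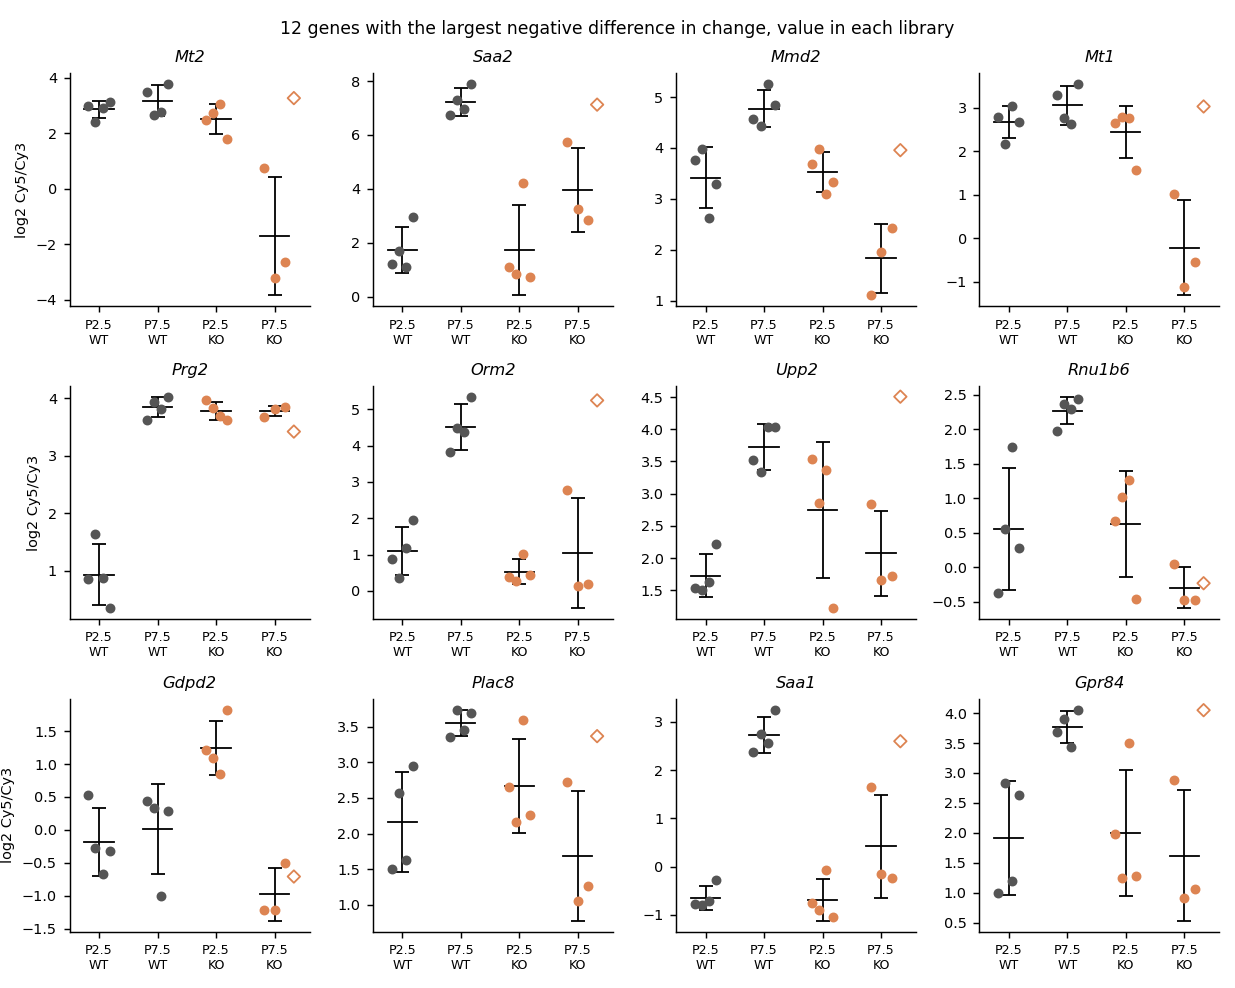
Log2 Cy5/Cy3 in each library for the 12 genes with the largest negative difference in change, drawn as for the positive genes. KO at P7.5 lies below WT at P7.5 in 10 of 12 panels, overlaps it for Prg2 and Gdpd2, and the open diamond of P7.5 KO replicate 2 sits among or above the WT values for Mt1, Mt2, Saa1, Saa2, Orm2, Upp2, Plac8 and Gpr84. The genes were chosen by these same values, so the separation of KO from WT is no further result.

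Genes of insulin action were on the positive side. Of 17 tested genes of the growth hormone, IGF and insulin axis, 6 (35.3%) were positive and 0 negative, with a median of 0.48. The shares over all genes were 16.9% and 16.4%. The insulin receptor Insr had 1.26, 1.32, 1.904 and 1.67 in WT at P2.5, 0.54, 0.30, 0.39 and 0.65 in WT at P7.5, 0.50, 0.61, 0.093 and 0.89 in KO at P2.5, then 1.27, 1.51 and 1.56 in KO at P7.5. KO was below WT at P2.5 and above it at P7.5 in every library, and the difference in change was 1.995 ± 0.27 (adjusted p = 4.50e-05), with 1.71 and 0.55 for its other probes. The receptor substrate Irs2, which is also a CREB target, showed the same reversal, from 0.80, 0.91, 1.49 and 1.04 to 0.36, 0.08, 0.19 and -0.045 in WT and from 0.025, 0.18, -0.17 and 0.013 to 0.61, 1.36 and 1.64 in KO. Its difference was 2.11 ± 0.32 (adjusted p = 0.000103). Irs1 had 1.28 and the transcription factor Foxo1 1.15 (adjusted p = 0.00139), while Igf1 (-0.41) and the growth hormone receptor Ghr (0.12) did not pass. P7.5 KO replicate 2, left out, lay nearer WT for 5 of the 6 called members.

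Liver pyruvate kinase, Pklr, an enzyme of glycolysis, went from 2.42, 2.900, 2.04 and 2.43 to 1.18, 1.11, 1.35 and 1.34 in WT and from 1.86, 1.54, 1.59 and 2.01 to 1.84, 2.78 and 2.49 in KO, a difference of 1.82 ± 0.30 (adjusted p = 0.000198). Over the 19 tested glycolysis genes, 3 were positive and 2 negative (the muscle-type pyruvate kinase Pkm at -0.45 and Pfkp at -0.52), shares of 15.8% and 10.5% against 16.9% and 16.4% over all genes. The left-out library had 1.04 for Pklr, below the lowest WT liver at P7.5, and lay nearer WT for 4 of the 5 called members.

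Glycogen genes were positive for 9 of 18 tested members and negative for 1 (Phkg2, -0.43), with a median of 0.41. These shares were 50% and 5.56%, against 16.9% and 16.4% over all genes. The kinase Gsk3b, which inhibits glycogen synthase, had -0.09, 0.052, 0.23 and -0.76 at P2.5, then -1.28, -1.296, -1.16 and -1.33 at P7.5 in WT, and -0.64, -0.73, -1.02 and -0.58 at P2.5, then 0.049, -0.0072 and 0.094 at P7.5 in KO, and a difference of 1.91 ± 0.21 (adjusted p = 9.61e-06). Its other probes gave less, 0.52 and 0.58. Glycogen phosphorylase Pygl had 1.02 (adjusted p = 0.000856) and the branching enzyme Gbe1 0.92, so that enzymes of breakdown and of synthesis were among the positive members. Glycogen synthase itself, Gys2, had 0.15 and did not pass. The left-out library lay nearer WT for 6 of the 10 called members, and with it kept 6 members were positive.

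Fatty acid oxidation and ketogenesis genes were positive for 13 (46.4%) of 28 tested members and negative for 0, against 16.9% and 16.4% over all genes. Their median was 0.50. The median change of the members was -0.16 in WT and 0.40 in KO. Etfa, which passes electrons from acyl-CoA dehydrogenases to the respiratory chain, had 2.57, 2.51, 2.59 and 2.68 at P2.5, then 2.704, 2.47, 2.603 and 2.63 at P7.5 in WT, and 2.07, 2.13, 1.76 and 2.19 at P2.5, then 2.78, 3.14 and 3.09 at P7.5 in KO. The KO values were below WT at P2.5 and above WT at P7.5, and the difference was 0.95 ± 0.16 (adjusted p = 0.000181). The very long-chain and medium-chain acyl-CoA dehydrogenases Acadvl and Acadm had 0.73 (adjusted p = 0.00172) and 0.98 (adjusted p = 0.00433) and the carnitine transferase Cpt1a 0.89. The nuclear receptor Ppara, which controls this pathway, had 0.93 ± 0.19 (adjusted p = 0.000919), but 0.047 (adjusted p = 0.905) with the image software's log ratio. The hormone gene Fgf21 had 1.79 and did not pass. The left-out library lay nearer WT for 10 of the 13 called members, and with it kept 8 were positive.

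Genes of lipid synthesis were on the positive side as well. Of 20 tested genes of fatty acid and triglyceride synthesis 6 (30%) were positive and 0 negative, against 16.9% and 16.4% over all genes. Their median was 0.70. The elongase Elovl6 had 0.60, 0.62, 0.11 and 0.68 at P2.5, then -1.13, -0.91, -0.98 and -1.16 at P7.5 in WT, and 0.28, -0.048, -0.22 and 0.92 at P2.5, then 0.064, 0.73 and 0.82 at P7.5 in KO, with a WT change of -1.55 ± 0.21 (adjusted p = 1.41e-05) and a KO change of 0.31 (adjusted p = 0.32). Its difference was 1.85 ± 0.31 (adjusted p = 0.000225), and acetyl-CoA carboxylase Acaca had 0.80 (adjusted p = 0.00481). Fasn (0.40), Srebf1 (-0.14) and Scd1 (-0.19) did not pass. P7.5 KO replicate 2, left out, lay nearer WT for all 6 called members. Over 30 alternative settings the positive members ran from 4, with that library kept or without P7.5 KO replicate 3, to 12 with array weights.

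Cholesterol genes were positive for 6 (25%) of 24 tested members and negative for 1 (4.17%), the regulator Srebf2 (-0.39), with a median of 0.29. The shares over all genes were 16.9% and 16.4%. Stard4, a cytosolic sterol carrier, had 1.56, 1.39, 1.66 and 1.51 at P2.5, then 0.69, 0.69, 0.55 and 0.54 at P7.5 in WT, and 1.81, 1.93, 1.37 and 1.55 at P2.5, then 2.26, 2.96 and 3.28 at P7.5 in KO. The difference was 2.08 ± 0.27 (adjusted p = 3.30e-05), but 0.29 for its other probe, which was also well above background in all 15 libraries. Hmgcs1 and Sqle of the synthetic pathway had 1.38 and 1.13. For 5 of the 7 called members the left-out library lay nearer WT.

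Among the bile acid genes, 6 of 16 tested (37.5%) were positive and 1 (6.25%) was negative (Akr1d1, -0.70), against 16.9% and 16.4% over all genes. The uptake transporter Slc10a1 had -0.71, -0.17, 0.18 and -0.38 at P2.5, then -1.06, -1.26, -1.16 and -0.94 at P7.5 in WT, and -1.68, -1.28, -1.81 and -0.998 at P2.5, then -0.91, -0.50 and -0.61 at P7.5 in KO, and a difference of 1.601 ± 0.33 (adjusted p = 0.00114). KO was below WT at P2.5 and above it at P7.5 in every library. The sterol hydroxylases Cyp8b1 and Cyp27a1 had 2.51 ± 0.73 (adjusted p = 0.0119) and 1.29 ± 0.26 (adjusted p = 0.000939), and Cyp7a1, the rate-limiting enzyme, had 1.51 and did not pass. Cyp8b1 reached 2.98, 4.78 and 5.09 in KO at P7.5, and with the image software's log ratio its difference was 0.57 (adjusted p = 0.676). P7.5 KO replicate 2, left out, lay nearer WT for 4 of the 7 called members. Over 30 alternative settings the positive members ran from 3 with the image software's log ratio to 10 with the Cy5 channel alone.

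Few genes of amino acid catabolism were positive, and the share of negative ones was near that of all genes. Of 51 tested genes 11 (21.6%) were negative and 2 (3.92%) positive (Glud1 at 0.65 and Amt at 0.38), against 16.4% and 16.9% over all genes, with a median of -0.17. Without P2.5 WT replicate 3 the negative genes were 18, and without P2.5 KO replicate 4 or P7.5 KO replicate 1 the positive genes were 5. With the marked local backgrounds kept, 7 were negative and the median turned to 0.10. The serine dehydratase Sds had 3.16, 2.58, 4.42 and 3.197 at P2.5, then 4.63, 4.39, 5.04 and 5.16 at P7.5 in WT, and 3.66, 3.34, 2.54 and 1.66 at P2.5, then 1.52, 2.48 and 2.13 at P7.5 in KO, and a difference of -2.22 ± 0.53 (adjusted p = 0.00327). Liver glutaminase, Gls2, went from 3.46, 2.71, 4.24 and 3.43 to 4.61, 4.398, 4.66 and 4.795 in WT, a rise of 1.16 ± 0.22 (adjusted p = 0.000316), and from 3.53, 3.46, 3.21 and 2.68 to 2.42, 2.97 and 2.605 in KO. Its difference was -1.72 ± 0.32 (adjusted p = 0.000501). All KO livers were below all WT livers at P7.5 for both genes, and the genotypes overlapped at P2.5. The methyltransferase Gnmt had -1.02 (adjusted p = 0.00196) and the histidine-degrading Hal and Amdhd1 had -1.05 and -0.95.

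The left-out library had 4.77 for Sds and 4.66 for Gls2, at the level of WT. It lay nearer WT for 11 of the 13 called members of the list, and with it kept 4 members were negative. Tyrosine aminotransferase, Tat, a classical glucagon target, was in this list too, with 4.92, 5.27, 5.48 and 4.397 at P2.5, then 4.79, 5.16, 5.35 and 5.55 at P7.5 in WT, and 5.03, 5.07, 5.24 and 4.26 at P2.5, then 3.25, 3.83 and 3.72 at P7.5 in KO. Its difference of -1.499 ± 0.54 passed narrowly (adjusted p = 0.0364) and did not pass under 14 of 30 alternative settings. Of the 8 urea cycle genes 2 (25%) were negative and 0 positive, against 16.4% and 16.9% over all genes. The 2 were the argininosuccinate synthase Ass1 at -1.01 (adjusted p = 0.00699) and the ornithine carrier Slc25a15 at -0.67 (adjusted p = 0.0447). With the left-out library kept, neither passed.

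For classical targets of glucagon in glucose output the difference in change did not pass the threshold. Pck1, which commits oxaloacetate to gluconeogenesis, had 7.001, 7.45, 8.36 and 7.17 at P2.5, then 7.67, 7.77, 7.797 and 8.11 at P7.5 in WT, and 7.31, 7.27, 6.73 and 6.796 at P2.5, then 6.57, 6.97 and 6.93 at P7.5 in KO, and a difference of -0.54 ± 0.57 (adjusted p = 0.499). G6pc, the glucose-6-phosphatase, had 4.58, 5.21, 5.86 and 4.91 at P2.5, then 4.95, 5.06, 5.38 and 5.26 at P7.5 in WT, and 4.95, 4.89, 4.904 and 4.62 at P2.5, then 4.05, 4.95 and 4.900 at P7.5 in KO, and a difference of -0.23 ± 0.31 (adjusted p = 0.61). For Pck1 the KO livers at P7.5 were all below WT, for G6pc the genotypes overlapped at both ages. The coactivator Ppargc1a had 0.90 ± 0.48 (adjusted p = 0.157), with another probe at -0.14. Among the 18 tested gluconeogenesis genes 2 were positive (Slc37a4 at 1.002 and Pcx at 0.72) and 1 was negative (Got1 at -1.08). These shares were 11.1% and 5.56%, against 16.9% and 16.4% over all genes. Without P7.5 KO replicate 1, 4 were positive. All 3 called members had the left-out library nearer WT.

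Of the 21 tested cAMP and CREB response genes 4 (19%) were negative, near the 16.4% of all genes, and 1, Irs2, was positive, with a median of -0.23. For 3 of these 5 the left-out library lay nearer WT. Crem, whose induced forms repress cAMP responses, had -1.32 (adjusted p = 0.0013), with another probe at 0.18, and the phosphodiesterase Pde4b, which degrades cAMP, had -0.95 (adjusted p = 0.0018). Pde4b had -0.66, -0.28, -0.82 and -0.38 at P2.5, then 0.45, 0.40, 0.46 and 0.42 at P7.5 in WT, and -0.52, -0.37, -0.10 and -0.40 at P2.5, then -0.23, -0.40 and -0.34 at P7.5 in KO, with a WT rise of 0.97 ± 0.14 and a KO change of 0.022 ± 0.15 (adjusted p = 0.929). The CREB-induced kinase Sik1 had -0.80 (adjusted p = 0.0506), Nr4a1 -0.22 (adjusted p = 0.38) and Per1 -0.16 (adjusted p = 0.825). For Per1 both genotypes fell, by 1.18 and 1.34 on the log2 scale in WT and KO.

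Of the receptor's signalling chain, 8 of 28 tested genes, Gcgr among the 28, were positive and 2 negative (Creb1 at -0.63 and Pde4b). These shares were 28.6% and 7.14%, against 16.9% and 16.4% over all genes. Itpr1, the calcium release channel that protein kinase A phosphorylates, had 0.079, 0.21, 0.091 and 0.20 at P2.5, then -0.25, -0.39, -0.37 and -0.12 at P7.5 in WT, and -0.67, -0.64, -0.60 and -0.27 at P2.5, then 0.74, 0.83 and 0.75 at P7.5 in KO, and a difference of 1.74 ± 0.16 (adjusted p = 1.27e-06). KO was below WT in every library at P2.5 and above it at P7.5. The kinase subunit Prkar2a had 0.93 (adjusted p = 0.000747), the coactivators Ep300 and Crebbp 0.86 and 0.59, the G protein Gnas 1.01 and adenylyl cyclase Adcy6 0.68. The genes of this list are long, with a median genomic length of 68.7 kb. Of all tested genes above 61.1 kb, 31.9% were positive and 8.81% negative, and the part of length in this list was not tested. The left-out library lay nearer KO for 7 of the 10 called members.

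**Figure D4:**
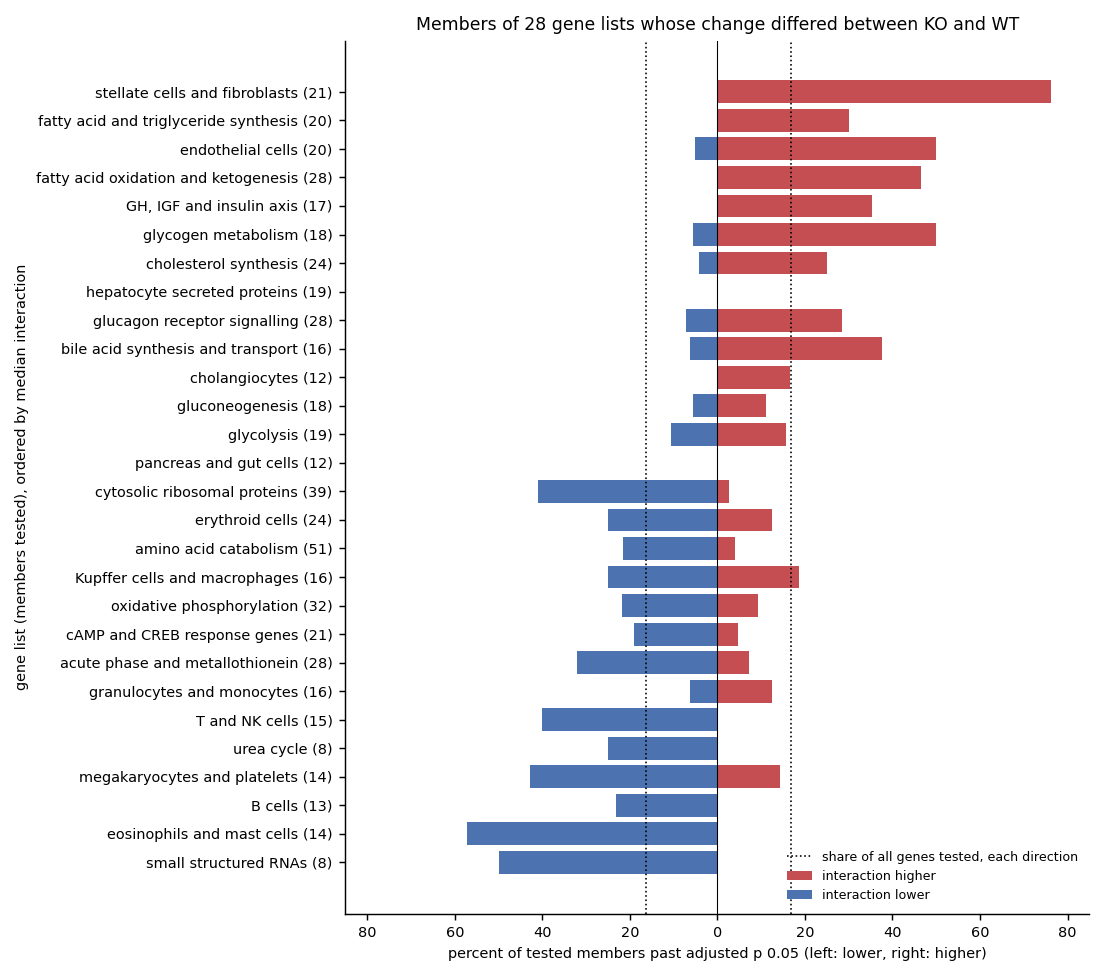
Percent of the tested members of 28 gene lists whose difference in change passed an adjusted p of 0.05, negative to the left and positive to the right, with the number tested in brackets. The dotted lines give the shares over all genes, 16.4% negative and 16.9% positive; stellate cell genes extend farthest to the right and eosinophil and mast cell genes farthest to the left.

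Among blood and immune cell markers, those of eosinophils, platelets and T and NK cells had the highest shares of negative differences, 57.1%, 42.9% and 40.0% against 16.4% over all genes. Of 14 tested eosinophil and mast cell genes 8 were negative and 0 positive, with a median of -0.80. Prg2 had 0.85, 1.63, 0.87 and 0.35 in WT at P2.5 and 3.62, 3.93, 3.802 and 4.02 in WT at P7.5, and 3.97, 3.83, 3.69 and 3.62 at P2.5, then 3.67, 3.81 and 3.85 at P7.5 in KO. WT livers at P2.5 were below all others, and the other 3 groups overlapped. The WT rise was 2.92 ± 0.18 (adjusted p = 1.17e-09) and the difference in change -2.92 ± 0.26 (adjusted p = 1.27e-06). The eosinophil ribonuclease Ear6 followed the same course, with 0.083, 0.20, 0.37 and 0.028 at P2.5, then 2.34, 2.17, 2.12 and 1.86 at P7.5 in WT, and 2.35, 1.63, 2.08 and 2.94 at P2.5, then 1.48, 2.55 and 2.705 at P7.5 in KO, and a difference of -1.96 (adjusted p = 0.002). The mast cell proteases Cma1 (0.22), Mcpt4 (-0.41) and Tpsb2 (0.54) did not pass, so the called members were eosinophil genes and the basophil protease Mcpt8 (-0.80). With normexp, the background correction, fitted on all spots 2 members were negative, and so with the marked local backgrounds kept. For 5 of the 8 called members the left-out library lay nearer WT. The genotypes overlapped at P7.5 for Prg2 and Ear6, so nearness to 1 of them says little there. The Ear genes are close copies of each other, and their probes may share signal.

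Of 15 tested T and NK cell genes 6 were negative and 0 positive, with a median of -0.36. Cd3d, a chain of the T cell receptor complex, had 0.049, 0.50, 0.43 and 0.76 at P2.5, then 2.502, 3.33, 2.78 and 3.26 at P7.5 in WT, and 0.64, 0.38, 0.74 and 0.35 at P2.5, then 1.85, 1.42 and 1.66 at P7.5 in KO. It rose in both genotypes, by 2.53 ± 0.18 in WT and 1.12 ± 0.20 in KO, and the difference was -1.42 ± 0.27 (adjusted p = 0.00061). Granzyme A, Gzma, had -1.896 (adjusted p = 0.00191), and Cd4 (-0.14), Cd8a (-0.077) and Cd3e (-0.13) did not pass. For 5 of the 6 called members the left-out library lay nearer WT. Of 13 B cell genes 3 were negative, or 23.1% against 16.4% over all genes (6 genes without P2.5 WT replicate 1 and 5 without P7.5 KO replicate 4). The largest difference was that of Vpreb1, part of the surrogate light chain of B cell precursors, at -2.04 (adjusted p = 0.000457).

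Genes of platelets and their precursors were negative for 6 of 14 tested members and positive for 2, with a median of -0.50. Gp9, a subunit of the platelet von Willebrand factor receptor, had 3.75, 4.398, 4.34 and 4.26 at P2.5, then 3.73, 3.75, 3.68 and 3.73 at P7.5 in WT, and 4.81, 4.73, 4.69 and 4.06 at P2.5, then 2.19, 2.51 and 2.39 at P7.5 in KO, and a difference of -1.74 ± 0.26 (adjusted p = 9.51e-05). KO at P7.5 was below all other libraries. Platelet factor 4, Pf4, had -1.35 (adjusted p = 0.000147). The positive members were Vwf at 1.02, which endothelial cells also make, and Itga2b at 1.12. The left-out library lay nearer WT for 7 of the 8 called members, and with normexp fitted on all spots 2 members were negative.

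Erythroid genes had a median change of -1.36 in WT and -1.42 in KO. Their differences in change went both ways, with a median of -0.17. Of 24 tested, 6 were negative (25%, against 16.4% over all genes) and 3 positive (12.5%, against 16.9%). Without P7.5 KO replicate 1 they were 3 negative and 5 positive, with a median of 0.27, and without P2.5 KO replicate 4 they were 4 and 5, so the balance of this list turned on single libraries. Of the 6 negative genes, 5 encode transcription factors of the lineage. Gfi1b had 4.64, 4.77, 4.76 and 4.88 at P2.5, then 3.09, 3.16, 3.07 and 3.16 at P7.5 in WT, and 5.58, 5.48, 5.48 and 5.18 at P2.5, then 1.72, 2.91 and 2.97 at P7.5 in KO, and a difference of -1.26 ± 0.27 (adjusted p = 0.00138), with KO above WT in every library at P2.5 and below it at P7.5. Klf1 had -0.89, Gata1 -0.86 and Tal1 -1.09, while the globin genes Hba-a1 (0.60) and Hbb-b2 (0.095) did not pass. With the local backgrounds that the image software marked as uneven kept, 1 erythroid gene was negative. P7.5 KO replicate 2, left out, lay nearer KO for 7 of the 9 called members.

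Macrophage markers were negative for 4 (25%) and positive for 3 (18.8%) of 16, near the shares of all genes. For 5 of these 7 the left-out library lay nearer WT. The Kupffer cell genes Cd5l and Timd4 had -0.62 and -1.35, complement C1qb -1.005, and the mannose receptor Mrc1, which sinusoidal endothelium also carries, 1.46 (adjusted p = 0.00269). Clec4f (-0.23) and Vsig4 (-0.16) did not pass. With normexp fitted on all spots 0 macrophage genes were negative, and so with the marked local backgrounds kept. Granulocyte and monocyte genes were negative for 1 (S100a8, -1.22) and positive for 2 of 16 (4 negative without P2.5 WT replicate 3), and cholangiocyte genes positive for 2 of 12, Spp1 at 0.93 and Sox9 at 0.46. These shares, 6.25% negative and 12.5% positive, then 16.7% positive, lay near or below the 16.4% and 16.9% of all genes. Of the 19 hepatocyte secreted proteins 0 passed in either direction with limma, and 3 had an unadjusted p under 0.05, all 3 above 0. By sign alone, 18 of the 19 differences were above 0 and 1 below, with a median of 0.29 against -0.014 over all genes tested. The 19 genes were measured on the same 15 libraries, so their signs are not separate observations. With the Cy5 channel alone 6 of these proteins passed the threshold, all positive.

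Genes for cytosolic ribosomal proteins leaned to the negative side. Of 39 tested 16 (41.0%) were negative and 1 (2.56%), Rpl23 at 0.47, was positive, against 16.4% and 16.9% over all genes. The median was -0.16, which is small beside the leading genes. The list's member genes are short, with a median genomic length of 3.71 kb. Of all tested genes up to 5.72 kb, 24.7% were negative and 4.99% positive, and the part of length in this list was not tested. Rps27 had -0.19, -0.37, -0.37 and -0.26 at P2.5, then 0.22, 0.33, 0.18 and 0.25 at P7.5 in WT, and 0.42, 0.26, 0.60 and 0.05 at P2.5, then -0.037, -0.15 and -0.20 at P7.5 in KO, and a difference of -1.0005 ± 0.14 (adjusted p = 5.49e-05). Of 32 genes of oxidative phosphorylation 7 (21.9%) were negative, near the 16.4% of all genes, and 3 (9.38%) positive, among them Cox7a2 at -0.87 and the complex III core subunit Uqcrc2 at 0.54. With normexp fitted on all spots 6 ribosomal protein genes were negative.

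Small structured RNAs had the lowest median of all described lists, -1.45, with 4 of 8 tested negative (7 without P2.5 WT replicate 3). The share of 50% stood against 16.4% over all genes. Rnu2-10, a copy of the U2 spliceosomal RNA, had -1.46, -0.95, 0.57 and -0.99 in WT at P2.5, 1.297, 1.17, 1.14 and 1.15 in WT at P7.5, 0.51, 0.11, 1.31 and -0.86 in KO at P2.5, then 0.22, -0.37 and 0.15 in KO at P7.5. The 4 WT livers at P7.5 were close together and above the 3 KO livers of that age, and both groups at P2.5 were widely spread. Its difference was -2.16 ± 0.59 (adjusted p = 0.00769). The left-out library, with Gcgr at the WT level, had -0.18 and stood with the KO livers of its slide. It lay nearer KO for 4 of the 4 called small RNAs, for 15 of the 17 called ribosomal protein genes and for 8 of the 10 called oxidative phosphorylation genes, and the part of the slide in these results was not tested.

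The difference in change also went with the genomic length of the gene, introns included. The genes were put into 5 classes of equal size by length. In the shortest class, 0.062 to 5.72 kb, 4.99% were positive and 24.7% negative, with a median of -0.13. In the longest class, above 61.1 kb, 31.9% were positive and 8.81% negative, with a median of 0.17. Over 17242 genes Spearman's rho of length and difference was 0.282, given as a description since genes of 1 library share its RNA and its array. The gap in median log2 ratio between the longest and the shortest class was lowest in WT at P7.5, from -0.31 to -0.25, and highest in KO at P7.5, from -0.11 to -0.05, with WT and KO at P2.5 between, from -0.16 to -0.11 and from -0.21 to -0.14. Of the 12 leading positive genes 6 were in the longest class, and of the 12 leading negative genes 8 were in the shortest. No value of RNA quality was used here, and the part of gene length in the results above was not tested.

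**Figure D5:**
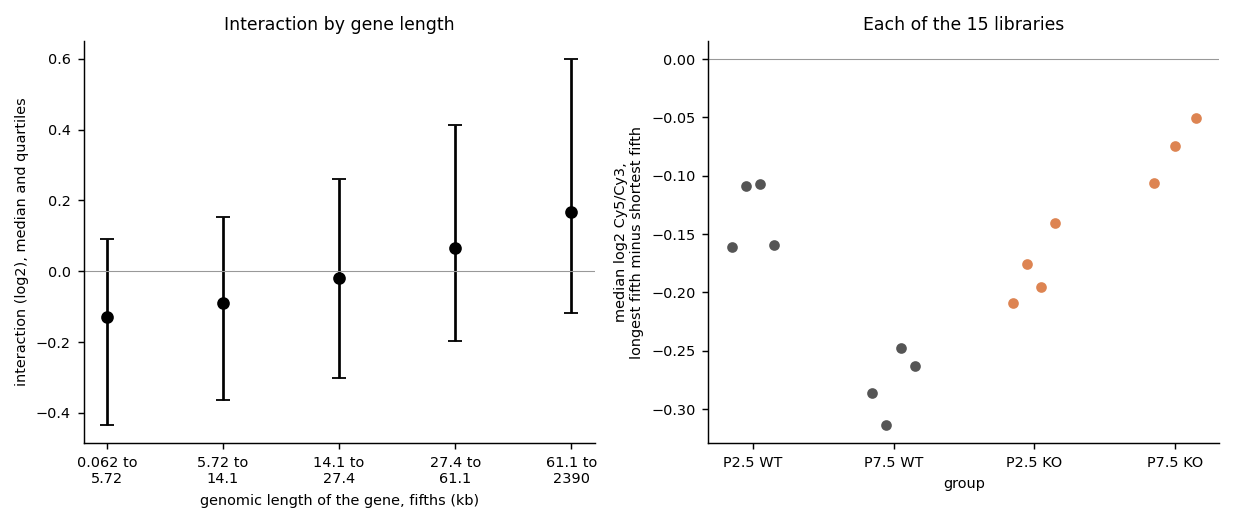
Left, median and quartiles of the difference in change (log2) in 5 classes of genomic gene length (kb) over 17242 genes; the median rises from -0.13 in the shortest class to 0.17 in the longest. Right, the median log2 Cy5/Cy3 of the longest class minus that of the shortest class in each of the 15 libraries, with 1 point per library; WT at P7.5 is lowest and KO at P7.5 highest.

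Some genes had large differences but probes that were not well above background in enough libraries of each group, so they are given by level and without a fold. Orm1 had 1.01, 0.60, 1.04 and 1.61 at P2.5, then 3.04, 3.52, 3.95 and 4.66 at P7.5 in WT, and 0.30, 0.0072, 0.87 and 0.35 at P2.5, then 1.89, 0.23 and 0.21 at P7.5 in KO, the pattern of Orm2. Cntn4, a neuronal adhesion molecule, had 0.50, 0.21, 0.73 and 0.18 in KO at P2.5, then 2.12, 2.83 and 2.55 in KO at P7.5, and its other probe differed in sign. Cyp2a22, a cytochrome P450, varied widely within each KO group, with 2.23, 0.27, 2.97 and 2.95 at P2.5, then 0.18, 2.95 and 0.20 at P7.5. The others were Gprin3 and Col11a1 on the positive side and Orm3 on the negative side.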

How the data were processed

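Per the file headers, the authors scanned two-colour Agilent arrays and deposited median spot and background intensity values from Feature Extraction, with the software's own background-corrected, dye-normalised log10 ratio. The submitters' processing notes name Agilent Feature Extraction 11. The deposited table of log2 values was used only as an alternative, since its making is not given in the sources used here beyond that tool. Flags of the software, also deposited, marked outlier spots, which were left out, and probes well above background.

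With R 4.3.3 and limma 3.58.1, normexp (offset 50) served for background correction and loess for normalisation within each array. A spot whose local background was marked as uneven or as an outlier took the median background of its array. This choice was made after the first results were seen; the earlier version stands among the alternatives. Of 39429 probes 26581 carried a gene symbol, and the probe brightest in Cy5 stood for each of 20144 genes. The 17242 genes well above background on at least 3 libraries were fitted with 1 mean per group over 23 arrays, with Benjamini-Hochberg adjustment across all of these genes. In the 15 libraries compared, 107 values of tested genes were missing and were dropped from the fit. The fit was tested on simulated data.

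Genes were named by rule: the 12 largest differences in each direction among called genes well above background on at least 3 libraries of each group, the 3 largest in each direction that miss that condition, up to 4 called members with the lowest adjusted p of each described list, and genes close to glucagon. Other list members were named after their values were seen. The members and the 35 gene lists were chosen with earlier results of these data known, and the 28 lists described and the glucagon genes after the list results were seen. Lists are described by counts and medians, without a set test. Sequences are from the RefSeq promoter table (GRCm38.p6), read with Python 3.11.15 and aligned with Biopython 1.88. The number of arrays limits the precision of all values. The E18.5 livers are compared with nothing here, and ages beyond P7.5 were not analysed here. Some genes are not reported here.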

Additional observations from a re-analysis of the deposited data

Results flagged for a closer look

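The difference in change passed the threshold for 5734 genes, which is a difference between 2 genotypes under the same contrast of ages.

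Among 360 sets of a named gene in a group of 4 libraries, Gcgr left out, 26 held a value far from the other 3 by Dixon's test, where chance gives about 1 in 20. Replicate 4 of KO at P2.5 supplied 13 of the 26. Its values were 2.56 for Plagl1, 1.56 for Mt1, -0.27 for Itpr1, -0.82 for Eno1, 0.79 for Sdsl and 0.87 for Cyp27a1. It also stood apart with 2.61 for Igfbp3, 0.77 for Dcn, 0.76 for Flt4, 4.06 for Gp9, 0.13 for Cox7a2, 0.95 for Ndufs3 and 2.05 for Sik1. Replicate 3 of that group had 4.22 for Saa2.

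In WT liver at P2.5, replicate 1 had -0.046 for Cyp2a22, replicate 3 had -0.010 for Col11a1, 0.11 for Elovl6, -0.28 for Rps15 and 1.07 for Cox7a2, and replicate 4 had -0.29 for Saa1. In WT liver at P7.5, replicate 1 had -3.94 for Timp2, 5.03 for Gzma and 1.30 for Rnu2-10, replicate 2 had 1.31 for Uqcrc2, replicate 3 had -1.002 for Gdpd2 and replicate 4 had 4.52 for Pcx.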

How the results depend on the processing

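Of 123 named genes, 120 were fitted in all 30 alternative settings; 78 of these kept their direction and their side of the threshold in all of them, and 117 kept their direction. The other 3, Areg, Gprin3 and Orm3, were not tested with the filter of 12 libraries well above background. The number of genes called was 5734 and ran from 4451 without P7.5 KO replicate 3 to 6427 without P2.5 KO replicate 4 when 1 library was left out. It was 5355 with P7.5 KO replicate 2 kept, 5353 with the slide as a random block, and 8576 with array weights, which also moved the genes called for the KO change from 6341 to 9621. The positive share of the calls was 50.7%. It was 55.7% with normexp fitted on all spots and 46% with the image software's log ratio. With the marked local backgrounds kept, which was the first processing and was added as an alternative after seeing the data, 4822 genes were called, 2731 positive and 2091 negative (56.6% positive).

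The direction of G6pc, which never passed, turned to 0.061 with the marked local backgrounds kept and to 0.51 with the Cy5 channel alone, and ran from -0.47 to 0.061 when 1 library was left out. Per1 ran from -0.57 to 0.17 when 1 library was left out, and Sptb, positive at 0.51 (adjusted p = 0.00833), was -0.17 (adjusted p = 0.845) with the image software's log ratio. The cause was not tested. Gpr84 lost its call without P7.5 KO replicate 3 (adjusted p = 0.0578) or 4 (adjusted p = 0.0525). Of 14 pairs of libraries with the same replicate number, 6 correlated above 0.1 in their deviations from the group means. The range was -0.54 to 0.40. Among 36 pairs with different numbers 11 did, with a range of -0.51 to 0.61. Deviations from means of so few libraries cannot decide whether replicate numbers pair the samples. With the replicate number as a block 5446 genes were called.

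With P7.5 KO replicate 2 kept, 18 named genes lost their calls, among them Orm2 (-1.85, adjusted p = 0.161), Sds (-1.54, adjusted p = 0.105), Gls2 (-1.22, adjusted p = 0.0567) and Ass1 (-0.54, adjusted p = 0.368). With the image software's log ratio 18 did, among them Sptb, Saa2 (-2.87, adjusted p = 0.0958), Orm2 (-3.19, adjusted p = 0.0588) and Sds (-0.82, adjusted p = 0.387). Normexp on all spots and the marked backgrounds kept each lost 16, including the calls of Cd5l, Timd4, C1qb, S100a8 and Gfi1b.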

Other observations

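The other 7 gene lists are given as counts, and their shares of called members, 8.33% to 21.1% positive and 5.26% to 23.5% negative, lay around or below the 16.9% and 16.4% of all genes. Amino acid transport had 3 positive and 4 negative genes of 17 tested. Drug metabolizing enzymes had 4 and 2 of 26, and fetal liver genes 4 and 2 of 19. Circadian clock genes had 4 positive and 1 negative of 19, and genes of the amino acid and unfolded protein stress response 3 and 2 of 23. Immediate early and heat shock genes, which respond to handling of tissue, had 2 positive and 2 negative of 24, and cell cycle genes 4 and 3 of 36.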
